A study of Rattus norvegicus with 24 samples.

Results

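AH236 and AH609 are 2 agents known only by code names, and they were compared in 12 RNA-sequencing libraries of rat cortical cells, out of 24 libraries in the series. The libraries were chosen by their titles. AH236 cultures in fresh growth medium, AH609 cultures in fresh growth medium, AH236 cultures in medium with 250 μM glutamate and AH609 cultures in the same glutamate medium gave 3 libraries each. No DMSO library entered these comparisons, and each medium carried equal weight in the comparison over both. Cells had been kept for 8 days on coated plates before the medium was exchanged, and wells were then imaged for 4 h. The labels give neither a dose nor a time of addition for either agent, nor the time of RNA extraction, and they do not say what the agents are. Whether the doses were matched is therefore not known. The labels do not say whether the 3 replicates of a group came from separate cultures. The tests therefore weigh a difference against the spread of these libraries only, and that spread may be technical.

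Glutamate is the main excitatory transmitter of the cortex, and it opens receptor channels on neurons that admit calcium and sodium. Prolonged exposure overloads cells with calcium and injures them, a process called excitotoxicity, in which protein kinases carry much of the signal from the membrane to the nucleus. Calcium entry is also a strong signal for transcription in neurons.

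The 12 libraries held between 22509400 and 35496447 counts. In medium the AH236 totals, from 29238059 to 33372053 counts, all lay above the AH609 totals, from 23681480 to 25528623. In glutamate the AH236 totals, from 23906256 to 31661697 counts, fell within the AH609 range of 22509400 to 35496447. The first principal component of log2 CPM (counts scaled to a common library size) carried 79.6% of the variance and separated glutamate from medium, whichever agent was given. The second carried 3.33% and put all 3 AH236 glutamate libraries, with scores from 8.13 to 15.5, above all 3 AH609 glutamate libraries, with scores from -14.0 to -8.68. In medium the scores of the agents overlapped, from -6.02 to 12.7 in AH236 and from -15.1 to -0.855 in AH609. On the first component AH609 replicate 3 in medium, at 44.9, lay nearest to the glutamate libraries among the 6 medium libraries, which reached 55.2. Replicates correlated across genes with r between 0.993 and 0.9954. The IDs could not be paired with gene names here, so the labelled cell type was not checked against its markers and no gene function is given.

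The first question was which genes differed between AH236 and AH609 when medium and glutamate were weighted equally. The test covered 15453 genes and called 793, or 5.13% (edgeR quasi-likelihood test, adjusted p under 0.05). AH236 cultures had the higher level in 409 of them, 2.65% of the genes tested, and the lower level in 384, or 2.48%. The differences were small. Among called genes 93.4% differed by less than 1.5-fold, and the median log2 fold change was 0.15 for the genes higher in AH236 and -0.28 for those lower. At least 1.5-fold, 6 genes were higher and 46 lower, and at least 2-fold 1 was higher and 12 were lower. In bulk samples, fewer cells of a type and less RNA per cell cannot be told apart.

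**Figure D1:**
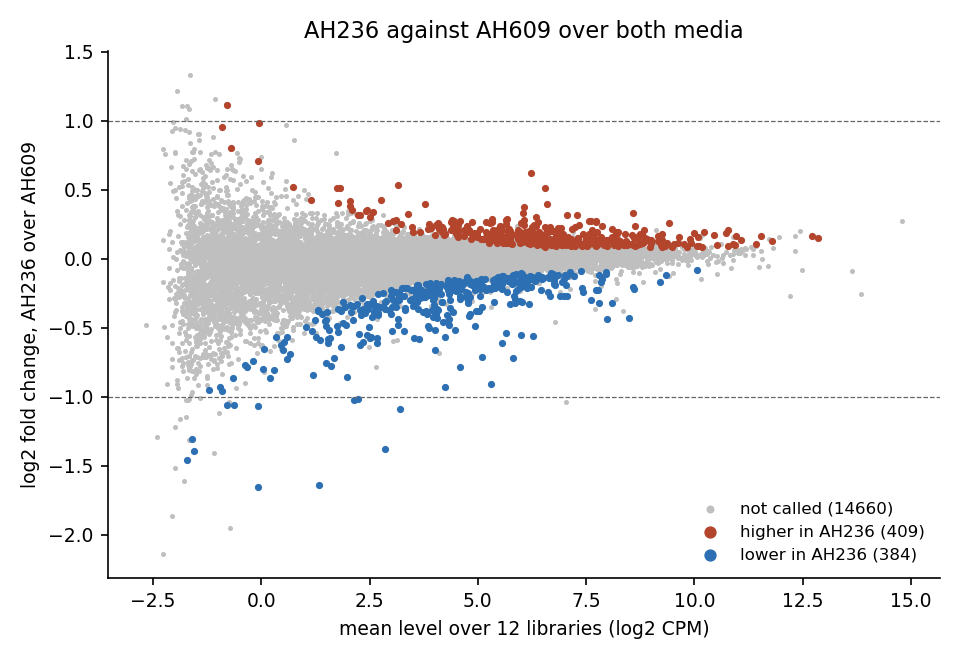
Log2 fold change of AH236 over AH609 over both media (y) against the mean level in the 12 libraries in log2 CPM (x), 1 point per gene tested. Red points mark the 409 genes higher in AH236 and blue points the 384 lower; dashed lines mark a 2-fold difference, which 1 called gene exceeded upward and 12 downward.

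Called genes were also counted by level, the horizontal axis of the plot of fold change against level. The genes tested were split by mean level into 4 bins of equal size. In the bin with the highest levels, with a median of 109 CPM, 299 genes were higher and 96 lower in AH236. In the bin below, with a median of 28.1 CPM, 78 were higher and 122 lower. In the next, with a median of 7.21 CPM, 25 were higher and 131 lower, and in the lowest, with a median of 0.850 CPM, 7 were higher and 35 lower. Precision changed along the same axis, with a median half-width of the 95% interval of 0.0653 log2 units in the highest bin and 0.459 in the lowest. The smallest called difference was 0.08 log2 units in the highest bin and 0.37 in the lowest. The 12 genes at least 2-fold lower in AH236 had mean levels from 0.287 to 26.2 CPM, and the 1 gene at least 2-fold higher had 0.603 CPM.

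Genes higher in AH236 took 10.9% ± 0.0593 (SD, n = 3) of all counts in AH236 glutamate libraries and 10.02% ± 0.149 in AH609 glutamate libraries. In medium they took 11.2% ± 0.0387 in AH236 and 10.4% ± 0.227 in AH609 libraries. Genes lower in AH236 took 1.97% ± 0.0119 of counts in AH236 glutamate libraries, against 2.27% ± 0.0240 in AH609 glutamate libraries. In medium they took 1.55% ± 0.0411 in AH236 and 1.82% ± 0.0309 in AH609 libraries. The same libraries chose these genes, so the shares are a description.

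Which direction had more genes depended on the scaling and on single libraries. With libraries scaled by their totals alone, 195 genes were higher and 609 lower in AH236, and the median over all genes was a log2 fold change of -0.03. With RLE size factors 356 were higher and 386 lower. Single libraries also moved the count, to 474 without AH236 replicate 1 in medium, 492 without AH609 replicate 3 in glutamate, 513 without AH609 replicate 3 in medium and 514 without AH236 replicate 3 in glutamate. With the other libraries left out it lay between 544 and 1070. Lower genes were the more numerous without AH236 replicate 1 or 3, or any AH609 replicate, in medium. Without AH609 replicate 1 in medium, for example, 284 were higher and 391 lower. Without AH609 replicate 3 in glutamate 237 were higher and 255 lower, and without AH236 replicate 2 in medium 561 and 509. The largest change in the count came from a library outside the comparison. When all 24 libraries of the series shared 1 estimate of the spread, 109 genes were called, with 58 higher and 51 lower. With DMSO replicate 1 in medium alone left out of that fit, 641 were called, and with all 6 DMSO libraries left out 744. The common biological coefficient of variation was 5.49% in the 12 libraries, 5.82% in the 23 and 7.49% in the 24.

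Most tested genes were not called, and for most of these the data set a bound. Of 14653 uncalled genes with a standard error, 12378, or 84.5%, had a 95% interval of the AH236 to AH609 difference inside 1.5-fold in either direction, and 14019, or 95.7%, inside 2-fold. These intervals are not adjusted for the number of genes.

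Library values were also compared directly. Among all genes tested, 548, or 3.55%, had all 3 AH236 libraries on the same side of all 3 AH609 libraries in both media, 290 above and 258 below. Among the 793 called genes 381 did, or 48.0%, with 199 above and 182 below. The test and this count use the same libraries.

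The following 4 genes had the 2 largest rises and the 2 largest falls over both media. They were taken from 393 higher and 337 lower called genes whose direction was shared by both media and whose mean log2 CPM reached 1. The test and the choice use the same libraries.

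The largest rise belonged to ENSRNOG00000016977. In medium it had 84.3, 74.4 and 77.5 CPM in the AH236 libraries, against 62.7, 57.4 and 52.8 CPM in the AH609 libraries. In glutamate it had 112, 112 and 108 CPM in AH236, against 68.2, 65.9 and 58.1 CPM in AH609. All AH236 libraries lay above all AH609 libraries in each medium, and the 2 groups did not overlap. The log2 fold change of AH236 over AH609 was 0.62 ± 0.04 (SE; edgeR adjusted p = 4.46e-07), with a 95% interval from 0.53 to 0.72. It was 0.45 ± 0.06 in medium (adjusted p = 0.000748) and 0.80 ± 0.06 in glutamate (adjusted p = 4.42e-06), and the difference between these missed the threshold (adjusted p = 0.0891). For IS141, a further agent of the series, and for DMSO cultures, levels were scaled over all 24 libraries and not tested. IS141 cultures had 42.9 ± 7.48 CPM in glutamate and 35.8 ± 2.32 CPM in medium (SD, n = 3), and DMSO libraries ran from 15.5 to 50.8 CPM over both media.

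The second rise, ENSRNOG00000052017, differed mainly in glutamate. There it had 10.6, 8.89 and 10.8 CPM in AH236, against 6.12, 4.80 and 5.57 CPM in AH609. In medium it had 11.8, 11.8 and 10.7 CPM in AH236, against 10.6, 8.43 and 11 CPM in AH609, and these groups overlapped. Over both media the log2 fold change was 0.54 ± 0.08 (SE; edgeR adjusted p = 0.000139). It was 0.88 ± 0.12 in glutamate (SE; edgeR adjusted p = 9.76e-05). In medium it was 0.20 ± 0.10 (adjusted p = 0.480), with a 95% interval from -0.01 to 0.41. The difference between the media was 0.68 ± 0.16 (adjusted p = 0.0359). In AH236 cultures the mean was 10.1 ± 1.06 CPM with glutamate and 11.5 ± 0.648 CPM in medium (SD, n = 3). In AH609 cultures it was 5.50 ± 0.664 CPM with glutamate and 10 ± 1.38 CPM in medium. IS141 cultures, not tested here, had 4.57 ± 0.782 CPM with glutamate and 9.65 ± 1.61 CPM in medium. DMSO libraries, also not tested, ran from 4.97 to 8.16 CPM with glutamate and from 5.16 to 21.2 CPM in medium.

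**Figure D2:**
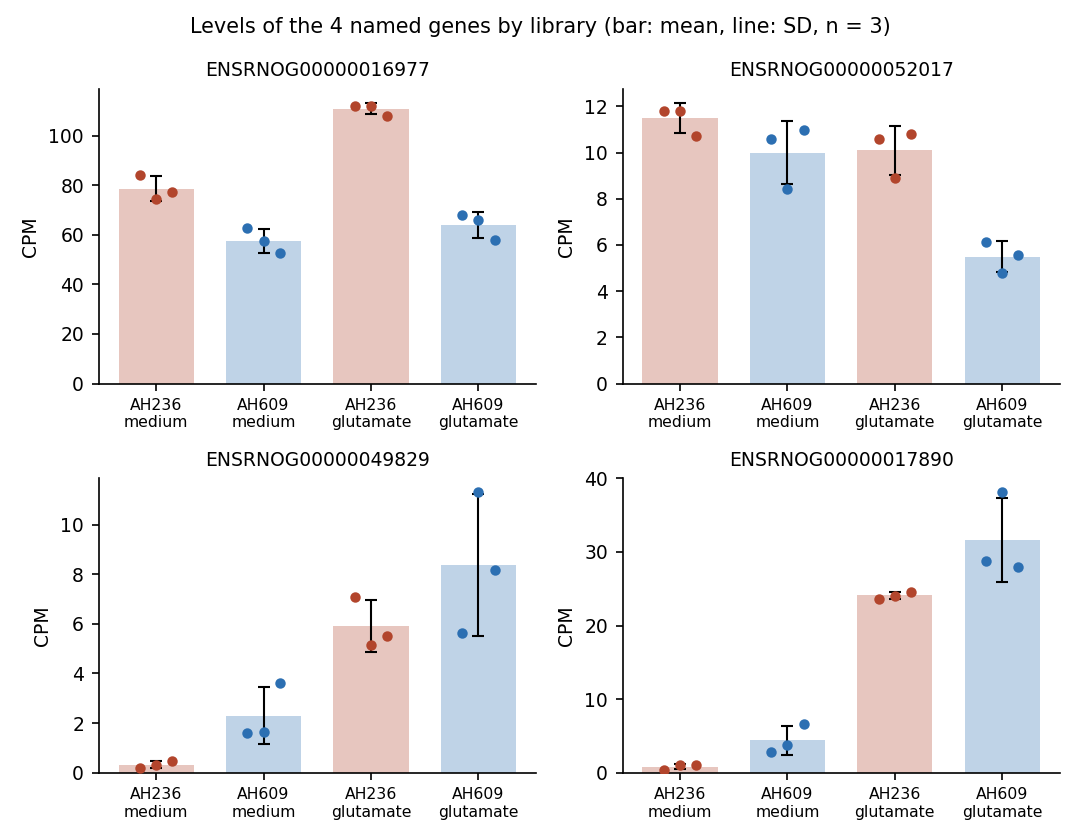
Levels in CPM (y) of the 4 named genes in each library, by agent and medium (x); points are libraries, bars the mean and lines the SD of 3 libraries. ENSRNOG00000016977 is higher in AH236 in both media and ENSRNOG00000052017 mainly in glutamate. The 2 genes in the lower panels were called lower in AH236 in medium and not in glutamate, and the difference between the media was not called.

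The 2 largest falls belonged to genes with lower levels in medium than in glutamate under both agents. ENSRNOG00000049829 had 6, 11 and 16 counts in the AH236 medium libraries, or 0.196, 0.302 and 0.466 CPM. The AH609 medium libraries had 41, 45 and 96 counts, or 1.61, 1.64 and 3.63 CPM. In glutamate it had 7.10, 5.15 and 5.51 CPM in AH236, against 5.63, 11.3 and 8.18 CPM in AH609. The groups were apart in medium and overlapped in glutamate. The log2 fold change was -1.64 ± 0.36 over both media (SE; edgeR adjusted p = 0.0196), -2.80 ± 0.66 in medium (adjusted p = 0.0413) and -0.48 ± 0.30 in glutamate (adjusted p = 0.456). The difference between the media, at 2.32 ± 0.73, missed the threshold (SE; edgeR adjusted p = 0.193). With 1 library left out, the call over both media was lost in 5 of 12 cases, with adjusted p up to 0.0772.

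ENSRNOG00000017890 had 0.392, 1.10 and 1.02 CPM in the AH236 medium libraries, against 2.87, 3.83 and 6.66 CPM in the AH609 medium libraries. In glutamate it had 23.6, 24 and 24.6 CPM in AH236, against 28.7, 38.1 and 28.0 CPM in AH609. Here the 2 groups did not overlap in either medium. The log2 fold change was -1.38 ± 0.27 over both media (SE; edgeR adjusted p = 0.0147), -2.37 ± 0.49 in medium (adjusted p = 0.0334) and -0.38 ± 0.20 in glutamate (adjusted p = 0.384). The difference between the media, at 1.99 ± 0.53, also missed the threshold (SE; edgeR adjusted p = 0.144). AH609 replicate 3 held the highest value of the medium libraries for both of these genes, and without it the log2 fold changes over both media were -1.40 and -1.18. In the DMSO medium libraries, which were not compared, ENSRNOG00000017890 ran from 1.68 to 52.8 CPM. The IS141 medium libraries had 3.97 ± 0.467 CPM (SD, n = 3). With all 24 libraries in the fit, none of the 4 named genes was called over both media, although their log2 fold changes stayed at 0.62, 0.54, -1.64 and -1.38.

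The comparison was then made in each medium alone. In medium 303 genes were called, 1.96% of those tested, with 75 higher in AH236 (0.485%) and 228 lower (1.48%). In glutamate 636 were called, or 4.12%, with 402 higher (2.6%) and 234 lower (1.51%). The median log2 fold change was -0.40 for the genes lower in medium and 0.22 for those higher in glutamate. At least 2-fold, 23 genes were lower and 1 higher in medium, and 11 were lower and 2 higher in glutamate. The excess of lower genes in medium held under scaling by library totals, at 54 higher and 257 lower, while the excess of higher genes in glutamate turned to 168 higher and 381 lower. Scaling by library totals leaves out the TMM scaling factors. In the glutamate libraries these factors did not overlap between the agents, at 0.912 to 0.927 in AH236 and 0.935 to 0.962 in AH609. Why they differed was not tested.

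These counts also depended on single libraries and on the fit. In medium the count was 125 when AH236 replicate 1 was left out, 154 when AH609 replicate 3 was and 184 when AH609 replicate 2 was, each in medium. In glutamate it was 235 when AH609 replicate 3 was left out, 275 when AH236 replicate 3 was and 365 when AH236 replicate 1 was, each in glutamate. With all 24 libraries in the fit, 8 genes were called in medium and 118 in glutamate, and with DMSO replicate 1 in medium left out 256 and 478. The AH236 medium libraries were deeper than the AH609 medium libraries. Thinned at random to 22509400 counts each, the libraries gave 265 called genes in medium, 559 in glutamate and 742 over both.

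The medium and glutamate comparisons share no library, but they come from 1 fit with a shared estimate of each gene's spread. Their lists are therefore not independent. They shared 83 genes, which were 27.4% of the medium list, against 4.12% of all genes tested called in glutamate. The same genes were 13.1% of the glutamate list, against 1.96% of all genes called in medium. Of the 83, 36 were higher in AH236 in both media, 40 were lower in both and 7 had opposite signs. Of the 303 genes called in medium, 223, or 73.6%, had the same sign in glutamate, and of the 636 called in glutamate 446, or 70.1%, had the same sign in medium, against 55.0% of all genes tested. The log2 fold changes of the 2 media correlated with r = 0.0786 across genes, and genes are not independent samples. Of the 793 genes called over both media, 77 were called in each medium alone, 146 in medium only, 303 in glutamate only and 267 in neither. A call in 1 medium only does not show that the media differed.

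**Figure D3:**
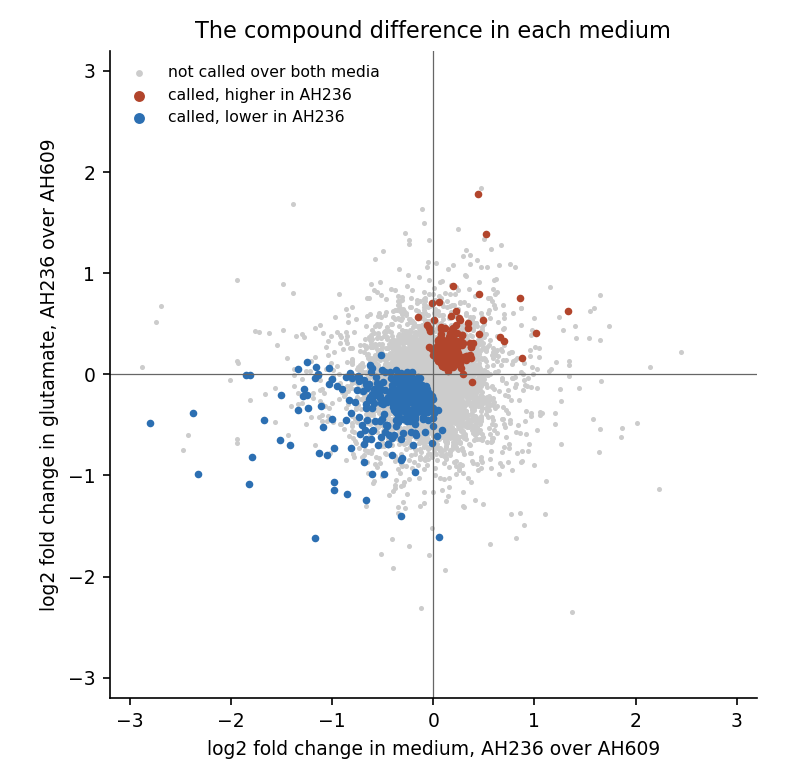
Log2 fold change of AH236 over AH609 in glutamate (y) against that in medium (x), 1 point per gene, with 3 of 15453 genes beyond the axes. Of the 793 genes called over both media, coloured by direction, 760 have the same sign in each medium and 33 opposite signs. That call weights both media equally, which itself favours a shared sign, so these counts describe the choice and are no further result. Among all genes tested 55% have the same sign.

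Whether the agents differed in the response to glutamate itself was asked by testing the difference between the 2 glutamate effects. For 126 genes, 0.815% of those tested, the effects differed. In 114 of them (0.738%) the change with glutamate was more positive in AH236 than in AH609 cultures, and in 12 (0.0777%) it was more negative. With library totals the numbers were 56 and 14. Among the 114, 91 were higher in glutamate than in medium with both agents, with a median log2 effect over all 114 of 1.26 in AH236 and 0.88 in AH609 cultures. A further 13 were lower in glutamate with both agents, and 10 were higher with AH236 and lower with AH609. The difference that chose these genes contains the AH236 to AH609 difference in each medium, so their levels describe the choice and are no further result. In medium 58 of the 114 were called lower in AH236 and 0 higher by edgeR, against 1.48% and 0.485% of all genes tested. In glutamate 52 were called higher and 2 lower, against 2.6% and 1.51% of all genes. The median log2 difference of AH236 from AH609 over the 114 was -0.23 in medium and 0.17 in glutamate.

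**Figure D4:**
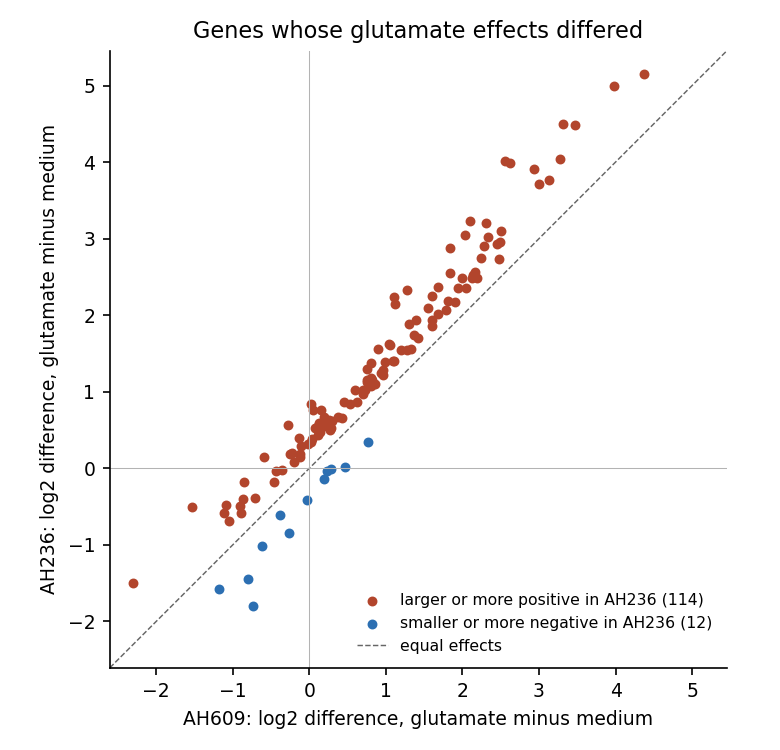
Log2 difference of glutamate minus medium in AH236 cultures (y) against that in AH609 cultures (x) for the 126 genes whose effects differed; the dashed line marks equal effects. The 114 genes above the line are mostly in the upper right, where glutamate raised the level with both agents, and 12 lie below it.

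Without AH609 replicate 3 in medium 71 genes were called, 57 more positive and 14 more negative in AH236. The count was 43 without AH236 replicate 3 in glutamate, 60 without AH236 replicate 1 in medium, 64 without AH236 replicate 1 in glutamate, 67 without AH609 replicate 3 in glutamate and 71 without AH609 replicate 2 in medium. More positive genes outnumbered more negative ones in each of the 12 fits with 1 library left out. With all 24 libraries in the edgeR fit 0 genes were called, with 1060 at an unadjusted p under 0.05, and with DMSO replicate 1 in medium left out 93 were called. DESeq2 on the 12 libraries called 216, of which 189 were more positive in AH236.

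IS141 cultures, which were not part of these comparisons, gave an independent list of glutamate genes. In them 1188 genes, 7.85% of 15133 tested, were called and at least 2-fold higher in glutamate than in medium, and 792, or 5.23%, at least 2-fold lower. Of the raised genes 1171 were tested here. In medium 1 of these was higher and 69 were lower in AH236 than in AH609, or 0.0854% and 5.89%, against 0.485% and 1.48% of all genes tested. Their median log2 fold change in medium was -0.07, against 0.00 for all genes. In glutamate 63 were higher and 28 lower, or 5.38% and 2.39%, against 2.6% and 1.51% of all genes, with a median of 0.00 for both. The glutamate effect was more positive in AH236 for 42 of the raised genes and more negative for 0, by the same edgeR test. These are 3.59% and 0%, against 0.738% and 0.0777% of all genes. Over both media, calls below the bin of highest level leaned to lower in AH236, glutamate genes or not. The part of level in the shares of the raised genes was not tested. DESeq2 gave 78 and 1 of the raised genes. At an unadjusted p under 0.05, edgeR found 1727 differing effects over all genes, raised or not.

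The mean level of the raised genes was 1.24, 1.41 and 1.26 log2 CPM in the AH236 medium libraries, against 1.35, 1.33 and 1.52 log2 CPM in the AH609 medium libraries, the last value being replicate 3. The groups overlapped through AH236 replicate 2. The counts of called genes among the raised genes moved with single libraries of both agents. In medium the 69 lower genes became 32 when AH236 replicate 1 was left out and 45 when AH236 replicate 3 was, and 39 when AH609 replicate 3 was left out and 44 when AH609 replicate 2 was. With 1 library left out, the median of all raised genes in medium ran from -0.12, without AH236 replicate 2, to -0.01, without AH609 replicate 3. In glutamate the 63 higher genes became 26 without replicate 3 of either agent and 41 without AH236 replicate 1. The 28 lower genes became 10 without AH236 replicate 2 or AH609 replicate 3, 11 without AH236 replicate 1, 15 without AH236 replicate 3 and 17 without AH609 replicate 1, all in glutamate, and 43 without AH236 replicate 2 in medium. The 42 genes with a more positive glutamate effect became 16 when AH236 replicate 3 in glutamate was left out, 24 when AH236 replicate 1 in glutamate was, and 22 when AH609 replicate 3 in glutamate was. They became 18 without AH236 replicate 1 or AH609 replicate 3 in medium, and 25 without AH609 replicate 2 in medium. The median difference between the glutamate effects over all raised genes was 0.10 log2 units with the 12 libraries. It ran from 0.03, without AH609 replicate 3 in medium, to 0.13, without AH236 replicate 2 in medium. With all 24 libraries in the fit, 0 raised genes were higher and 1 lower in medium, 10 were higher and 3 lower in glutamate, and 0 had a differing effect by edgeR. With library totals 1 was higher and 73 were lower in medium, and in glutamate 31 were higher and 35 lower.

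Genes that glutamate lowered in IS141 cultures had a slightly lower mean level in AH236 in both media. Of 781 tested, 0 were higher and 17 lower in medium by the edgeR test and 0 and 16 by DESeq2. By edgeR these are 0% and 2.18%, against 0.485% and 1.48% of all genes tested. At an unadjusted p under 0.05, edgeR found 1802 differences in medium over all genes, lowered or not. In medium the 17 lower genes became 8 without AH236 replicate 1 and 9 without AH609 replicate 3. In glutamate 8 were higher and 12 lower, or 1.02% and 1.54%, against 2.6% and 1.51% of all genes, so that the share of lower calls there was near that of all genes. The mean level in medium was 2.35, 2.36 and 2.36 log2 CPM in the AH236 libraries, against 2.42, 2.45 and 2.44 in the AH609 libraries. In glutamate it was 1.11, 1.09 and 1.14 log2 CPM in AH236, against 1.22, 1.17 and 1.21 in AH609. All 3 AH236 libraries lay below all 3 AH609 libraries in each medium. The median log2 fold change was -0.05 in medium and -0.07 in glutamate, against 0.00 for all genes in each. With library totals it was -0.06 and -0.12, against -0.02 and -0.05 for all genes. Over both media, with TMM scaling, the median was -0.06 for the lowered genes and -0.04 for the raised genes. The part of level in these shifts was not tested. The mean level of raised genes less that of lowered genes was also taken in each library. In glutamate it was 2.15 ± 0.0230 log2 units in AH236 and 2.10 ± 0.0361 in AH609 libraries, and in medium -1.06 ± 0.0860 in AH236 and -1.04 ± 0.111 in AH609 libraries (SD, n = 3).

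**Figure D5:**
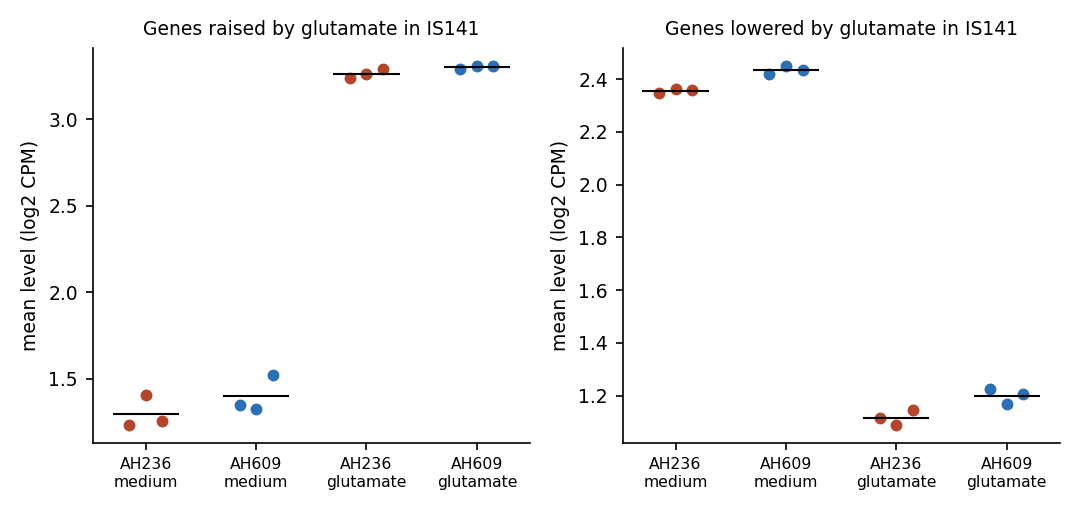
Mean level in log2 CPM (y) of the genes raised (left) and lowered (right) by glutamate in IS141 cultures, in each AH236 and AH609 library (x); points are libraries and lines the mean of 3. In the right panel all AH236 points lie below all AH609 points in each medium, and in the left panel AH609 replicate 3 is the highest medium point, at 1.52.

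The response of the called genes to glutamate in IS141 cultures was then counted. Of the genes higher in AH236, 202 of 408 tested in IS141 cultures were called higher with glutamate there, or 49.5%, and 106 lower, or 26.0%. Of the genes lower in AH236, 171 of 384, or 44.5%, were called higher and 129, or 33.6%, lower. Of all genes tested here 31.6% were called higher and 32.7% lower. Genes of higher level are called more readily in both tests, and the part of level in these shares was not tested. Of the 12 genes at least 2-fold lower in AH236, 5 were among the genes raised in IS141 cultures and 1 among those lowered, lists that held 1171 and 781 of all 15453 genes tested.

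For each gene called in a medium, the mean log2 CPM of IS141 cultures was placed with AH236 or with AH609, whichever mean was nearer, after scaling over all 24 libraries. In glutamate it was nearer to AH609 for 372 of the 402 genes higher in AH236 and for 219 of the 234 lower, or 92.5% and 93.6%. Among all genes tested with these signs the shares were 63.5% and 62.0%. The IS141 mean lay beyond AH609, on the side away from AH236, for 270 of the 402 and 130 of the 234. It lay beyond AH236 for 2 and 1. Among all genes tested with these signs it lay beyond AH609 for 3901 of 7816 and 3470 of 7637. In medium it was nearer to AH609 for 73 of 75 higher genes and 215 of 228 lower genes, or 97.3% and 94.3%, against 58.7% and 58.8% of all genes. There it lay beyond AH609 for 65 and 182 of them, and beyond AH236 for 0 and 4. Among all genes it lay beyond AH609 for 3686 of 7844 and 3550 of 7608. The same AH236 and AH609 libraries chose the called genes and set the 2 points of the placement. Most genes tested differ little between these points, so their shares are not a like baseline.

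The DMSO means, which entered no comparison, were placed in the same way. In glutamate they were nearer to AH609 for 336 of 402 higher and 151 of 234 lower genes, or 83.6% and 64.5%, against 58.1% and 60.3% of all genes. They lay beyond AH609 for 219 and 70 of these genes, and beyond AH236 for 23 and 24. In medium they were nearer to AH609 for 68 of 75 higher and 170 of 228 lower genes, or 90.7% and 74.6%, against 60.2% and 61.0% of all genes. They lay beyond AH609 for 57 and 124 of these, and beyond AH236 for 1 and 24. Without DMSO replicate 1 the medium means were nearer to AH609 for 56 of 75 and 101 of 228, or 74.7% and 44.3%, against 52.2% and 52.9% of all genes. They then lay beyond AH609 for 41 and 48 of these, and beyond AH236 for 7 and 65. The limits given for the IS141 placement hold here too, so these shares are a description.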

How the data were processed

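The authors deposited raw whole-number counts per gene, under Ensembl rat IDs, in a single table. The submitters' processing notes list STAR 2.7.8a, RSEM 1.3.3, cutadapt 2.3, FastQC 0.11.8, bcl2fastq and the build Rnor_6.0, without roles. The kit marks strand, per the labels. How strand was used in counting, and the annotation, are not stated. RSEM gives estimates, so genes that overlap or share reads with copies are uncertain. Of 32754 IDs, 0 matched a name in the reference tables, so 43 gene lists with 799 symbols gave no result, no sequence is shown, and 2 IDs per direction are named, as the rule sets for that case.

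The 12 libraries were fitted with edgeR 4.0.16 in R 4.3.3 (filterByExpr, TMM, robust dispersions, quasi-likelihood F test, 1 mean per group), with Benjamini-Hochberg adjustment over 15453 genes and a threshold of 0.05. Standard errors came from the fit's weights and moderated dispersion. Log2 CPM used a prior count of 2. IS141 libraries were fitted alone to find glutamate genes. Alternatives were DESeq2 1.42.0, other scalings, filters and library sets, a replicate block and leaving out each library. Thinning and the fit without DMSO replicate 1 were chosen after seeing the data. The comparison, lists and tests were chosen with earlier results of these data known. A pair of AH236 glutamate titles carried the number 2, and the later is called replicate 3.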

Additional observations from a re-analysis of the deposited data

Results flagged for a closer look

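The difference between AH236 and AH609 was not the same in glutamate and in medium for 126 genes, 0.815% of those tested. The test was of the difference between the 2 glutamate effects (edgeR quasi-likelihood test, adjusted p under 0.05). Of the 126, 114 were more positive (0.738% of genes tested) and 12 more negative (0.0777%) in AH236. Among the 4 named genes, ENSRNOG00000052017 was 1 of the 126, with a difference of 0.68 log2 units between the AH236 to AH609 fold changes in glutamate and in medium. In glutamate all 3 AH236 libraries lay above all 3 AH609 libraries for this gene, and in medium the groups overlapped.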

How the results depend on the processing

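With all 24 libraries in the fit, the counts of called genes were 109 over both media, 8 in medium, 118 in glutamate and 0 for the difference between the glutamate effects (edgeR, 1060 at an unadjusted p under 0.05; DESeq2 was not run on 24 libraries). With no filter on low counts they were 524 in medium, 978 in glutamate and 430 for the difference, over 24446 genes tested. The difference count was 216 with DESeq2 and 70 with library totals, for which the cause was not tested. With 1 library left out, counts ranged from 474 to 1070 over both media, from 125 to 306 in medium, from 235 to 867 in glutamate and from 43 to 133 for the difference. With the replicate block they were 745, 314, 589 and 120 in the same order, and same-numbered libraries did not deviate together (correlations from -0.147 to 0.106 over 18 pairs, with 4 of 12 libraries best matched to their own number). The share of higher calls in glutamate was 63.2%, and 51.3% with no filter. At least 1 CPM in 3 libraries gave 334 higher and 446 lower genes over both media. Of the 4 named genes' log2 fold changes under alternatives, 0 of 88 changed sign. ENSRNOG00000049829 fell short of the threshold in 5 of 12 fits with 1 library left out. At 0.287 CPM and similar levels, counts per library limit what can be called.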
